A study of Mus musculus with 12 samples.

Results

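The transcriptomes of 4 pancreatic neuroendocrine tumors from mice given sunitinib were compared with those of 4 tumors from mice given saline, out of 12 tumors in the series. These 8 were taken by their treatment labels. All came from C57Bl6 mice of the RIP1Tag2 line, in which the insulin gene promoter drives the SV40 T antigen oncogene in pancreatic beta cells, so that islets progress to insulinoma. Treatment lasted 4 days and began at 15.5 weeks of age, with saline for the control group and sunitinib alone (Sutent) for the treated group. The remaining 4 tumors had received rapamycin with sunitinib. They entered the filter on low counts, the normalization and the model fit, where they helped to estimate the spread between tumors. Control tumors are numbered 1 to 4 and sunitinib tumors 5, 6, 8 and 12, and per-tumor values are given in that order throughout. Of 38924 genes in the count tables, 16645 had enough reads to be tested.

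Sunitinib inhibits receptor tyrosine kinases, among them the VEGF receptors of endothelial cells, the PDGF receptors of pericytes and fibroblasts, and KIT, FLT3, RET and the CSF1 receptor. VEGF signaling maintains the dense vasculature of these islet tumors, and pericytes and the basement membrane wrap their capillaries. A bulk tumor transcriptome pools cancer cells, vessels, blood, leukocytes and any adjoining pancreas. In such data fewer cells of a type and less RNA per cell cannot be told apart.

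The labels assign 1 tumor to each library but do not say how many mice the tumors came from. All 4 control titles carry 1 prefix, sunitinib tumors 5, 6 and 8 share another and tumor 12 has its own, so treatment and prefix cannot be told apart, and p-values treat tumors as independent. Library totals were 34898448 to 44215054 counts in control and 31872342 to 39123009 in sunitinib tumors. All 30 genes of a beta cell marker list were measured, and insulin transcripts (Ins1 and Ins2) took 2.71 to 4.49% of counts in control tumors, matching the label of an insulinoma. In sunitinib tumors 5, 8 and 12 that share was 2.02, 2.77 and 6.00%, and in tumor 6 it was 0.112%. Tumor 6 also stood apart across the transcriptome: its log2 expression correlated with the other 3 sunitinib tumors at r = 0.872 to 0.895 over genes, against 0.957 to 0.978 among those 3 and 0.967 to 0.991 among control tumors. It was the tumor farthest from the mean of the other 3 for 7286 genes, or 43.8%, where sunitinib tumor 12 was for 32.2% and control tumor 1, in its own group, for 38.6%. Calls without tumor 6 are therefore also given for many of the genes and lists below.

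Transcripts of the exocrine pancreas also separated the groups. A list of 55 acinar genes took 0.00938 to 0.0262% of counts in control tumors, and 3.62, 5.88, 4.48 and 1.56% in sunitinib tumors 5, 6, 8 and 12 (p = 0.0286 in an exact two-sided permutation test, the lowest p attainable with 4 tumors a group). Because the acinar levels of the groups did not overlap, the acinar share and the treatment cannot be told apart by adjustment. The part of exocrine RNA in the genes described below was not tested. Fold changes with the mean log2 level of the acinar list (the acinar score) as a covariate are given for some genes and lists only. Values not printed can differ as much. For example, the median of an antigen presentation list was -2.44 with the covariate and -0.25 without it, and that of the beta cell list 0.70 and -0.38.

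**Figure D1:**
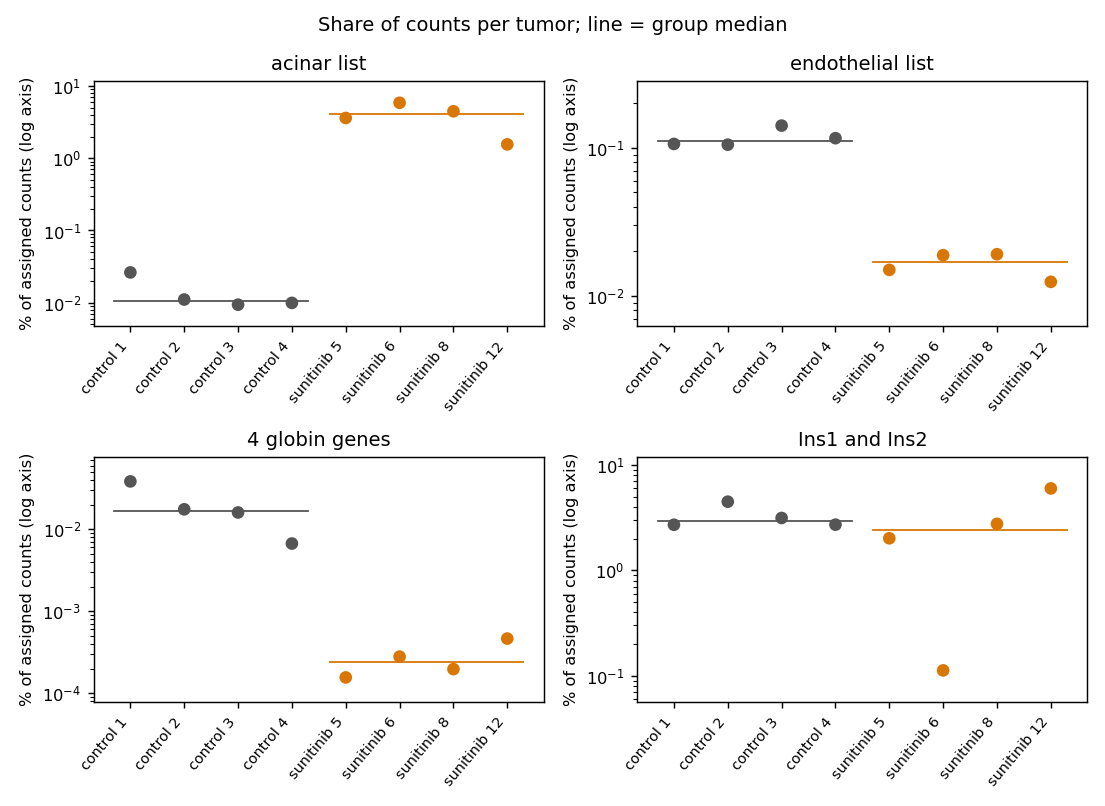
Share of assigned counts (y axes, percent, log scale) on the acinar list, the endothelial list, the 4 globin genes and the 2 insulin genes in each of the 8 tumors (points), with group medians as lines. The groups are separate for the first 3 measures, and sunitinib tumor 6 lies far below the other tumors for insulin at 0.112%.

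In edgeR's quasi-likelihood fit with a Benjamini-Hochberg adjusted p under 0.05, 321 genes (1.93% of those tested) were higher and 424 (2.55%) lower in sunitinib than in control tumors. The median fold change over all tested genes was 0.03 on the log2 scale, and 8865 (53.3%) of the fold changes were positive. An unadjusted p under 0.05 was reached by 3247 of the 16645 genes, and counts at that level in the lists below are to be read against this. Of the higher genes, 46 belonged to the acinar list and another 24 to lists of glycolysis enzymes or hypoxia-inducible factor targets, which are not described further here. The remaining 251 higher and the 424 lower genes cover other functions and cell types. In 299 of the 321 and 422 of the 424 the tumors of the groups did not overlap, where over all tested genes 860 (5.17%) lay wholly above and 958 (5.76%) wholly below the control tumors. Values per gene are CPM (reads per 1000000 after TMM scaling), fold changes are log2 values with their standard error, and all adjusted p values are from this fit. Leaving out sunitinib tumor 6 gave 330 higher genes (1.96%) and 562 lower genes (3.34%). Of the original calls, 265 of the 321 higher and 373 of the 424 lower genes also passed without it, and 153 and 245 passed whichever of the 8 tumors was left out. Without control tumor 3 the counts were 183 higher and 257 lower, without control tumor 4 they were 172 and 302, and in the fit of the 8 tumors alone 141 and 239.

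**Figure D2:**
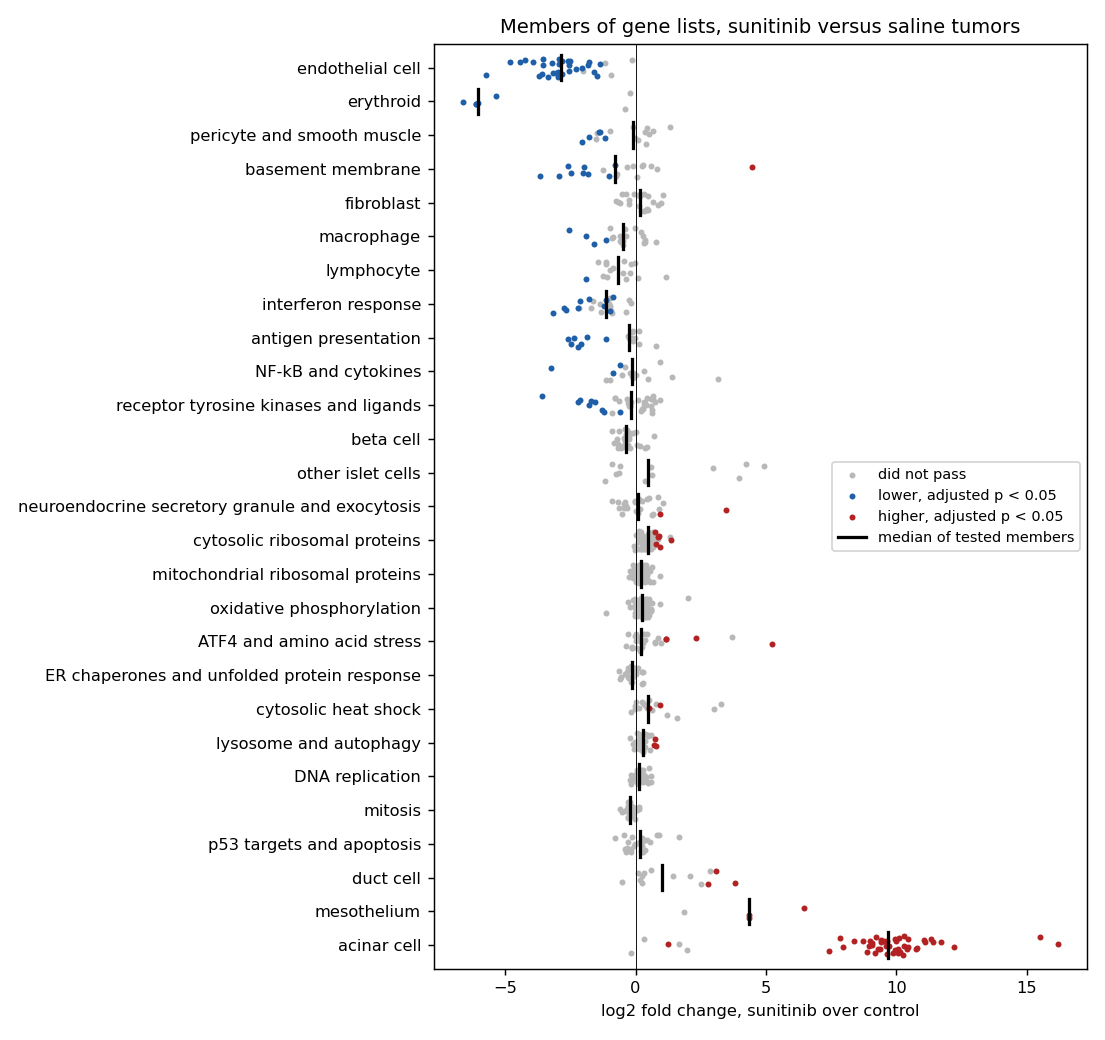
Log2 fold change of sunitinib over control (x axis) for each tested member (point) of 27 gene lists (rows), colored by whether it passed an adjusted p of 0.05, with the list's median as a bar. Endothelial, erythroid and interferon genes lie to the left of 0, acinar genes far to the right, and most metabolic and cell-cycle lists near 0.

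Blood vessel transcripts were lower in every sunitinib tumor. Of 34 endothelial markers, all tested, 30 fell, none rose and the median log2 fold change was -2.87, against 0.03 over all genes. Together they took 0.105 to 0.141% of counts in control and 0.0124 to 0.0191% in sunitinib tumors (exact permutation p = 0.0286).

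Kdr encodes VEGF receptor 2 and lies at chr5:75932827-75978458 on the minus strand (GRCm38). It measured 86.4, 85, 117 and 98.5 CPM in the control tumors and 3.52, 5.03, 3.54 and 1.48 CPM in the sunitinib tumors (log2 fold change -4.83 ± 0.32, adjusted p = 1.1e-05). The groups were far apart, with every sunitinib tumor more than 10-fold below every control tumor. Flt1, the gene of VEGF receptor 1, measured 78.9, 67.7, 93.5 and 87.7 CPM in the control tumors and 4.52, 4.12, 4.99 and 1.6 CPM in the sunitinib tumors (log2 fold change -4.42 ± 0.32, adjusted p = 1.47e-05). Flt4, the gene of VEGF receptor 3, ranged from 15.4 to 19.2 CPM in control tumors and 0.321 to 2.65 CPM in sunitinib tumors (log2 fold change -3.68 ± 0.53, adjusted p = 0.00157). All 3 VEGF receptor genes thus fell without overlap between the groups.

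Genes of the capillary surface showed the same separation. Plvap, which builds the diaphragms of fenestrated capillaries, measured 143, 143, 162 and 139 CPM in the control tumors and 8.63, 12.3, 17.9 and 11.8 CPM in the sunitinib tumors (log2 fold change -3.53 ± 0.20, adjusted p = 4.67e-06). Esm1, a proteoglycan gene of VEGF-stimulated tip cells, measured 53.1, 46.9, 68.4 and 49.5 CPM in the control tumors and 1.1, 0.746, 0.58 and 1.67 CPM in the sunitinib tumors (log2 fold change -5.74 ± 0.44, adjusted p = 1.79e-05). Cd300lg, a receptor of capillary endothelium, measured 23.4, 20.6, 29.5 and 22.9 CPM in the control tumors and 0.587, 0.691, 0.712 and 0.738 CPM in the sunitinib tumors (log2 fold change -5.14 ± 0.27, adjusted p = 4.67e-06). For each of the 3 the control tumors lay close together and all 4 sunitinib tumors were low, tumor 6 included.

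Junction and receptor genes of the list fell as well. Pecam1 (CD31) ranged from 65.5 to 108 CPM in control tumors and 11.1 to 19.8 CPM in sunitinib tumors (log2 fold change -2.56 ± 0.20, adjusted p = 2.38e-05), and Cdh5 (VE-cadherin) from 36.3 to 83 CPM in control tumors and 5.04 to 11.1 CPM in sunitinib tumors (log2 fold change -2.92 ± 0.27, adjusted p = 7.1e-05). Emcn fell by 3.94, and Tek, the angiopoietin receptor, fell by 2.82 on the log2 scale. The 4 members that did not pass were Esam, Apln, Vwf and Angpt2, the last a vessel-destabilizing angiopoietin at -1.17 ± 0.37. Vwf, made by endothelial cells of larger vessels and by platelets, measured 14.5, 13.4, 12.1 and 11.8 CPM in the control tumors and 13, 11.8, 14.9 and 7.93 CPM in the sunitinib tumors (log2 fold change -0.12 ± 0.20, adjusted p = 0.764), so its groups overlapped. Apln and Esam, with log2 fold changes of -2.01 ± 0.57 and -0.93 ± 0.42, were higher in tumor 6 than in the other sunitinib tumors and passed without it (adjusted p = 0.00464 and 0.00698).

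Without tumor 6, 32 of the 34 fell, and 29 to 32 did whichever tumor was left out. With the mean acinar level as a covariate 33 of 34 kept a negative fold change, with a median of -2.73, although that fit cannot separate acinar level from treatment. Podxl and Ccnd1, chosen after their values were seen, also fell. Podxl, a sialomucin gene, ranged from 62.4 to 86.3 CPM in control tumors and 4.91 to 12 CPM in sunitinib tumors and Ccnd1, the gene of cyclin D1, from 19.9 to 35.7 CPM in control tumors and 2.57 to 4.13 CPM in sunitinib tumors (log2 fold change -3.12 ± 0.27, adjusted p = 4.6e-05 and log2 fold change -2.88 ± 0.25, adjusted p = 4.75e-05). The GIMAP family of small GTPases, picked after its values were seen, had 6 of 8 members lower. Among neuropilins and plexins, also picked afterwards, 3 of 11 fell, namely Nrp1, Nrp2 and Plxnd1.

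**Figure D3:**
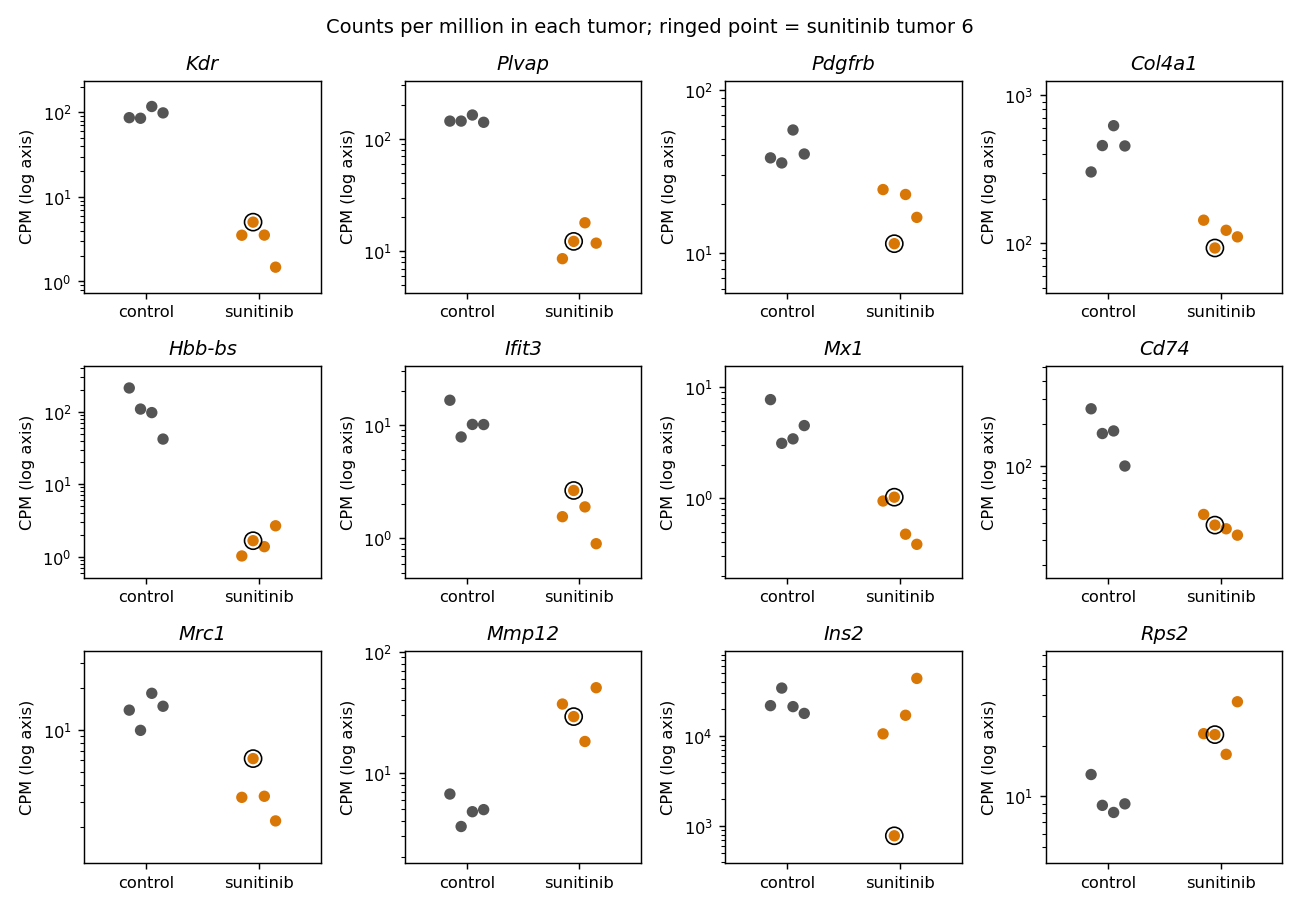
CPM (y axes, log scale) of 12 genes in the 4 control (gray) and 4 sunitinib tumors (orange), with sunitinib tumor 6 ringed. Kdr, Plvap, Hbb-bs, Ifit3 and Cd74 are lower and Mmp12 and Rps2 higher in every sunitinib tumor, while Ins2 overlaps apart from tumor 6.

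Red cell transcripts had the lowest median of the lists examined, -6.04. The 4 adult globin genes took 0.0067 to 0.0384% of counts in control and 0.000156 to 0.000464% in sunitinib tumors (exact permutation p = 0.0286). Hbb-bs, a beta globin gene at chr7:103826534-103828096 on the minus strand, measured 212, 109, 97.1 and 41.9 CPM in the control tumors and 1.02, 1.66, 1.37 and 2.66 CPM in the sunitinib tumors (log2 fold change -6.11 ± 0.79, adjusted p = 0.000751). The spread within the control group was wide, control tumor 1 being highest and tumor 4 lowest, but the lowest control tumor was still more than 10-fold above every sunitinib tumor. Alas2, which starts heme synthesis in red cell precursors, measured 11.6, 7.62, 5.43 and 2.76 CPM in the control tumors and 0.102, 0.0276, 0.185 and 0.0642 CPM in the sunitinib tumors (log2 fold change -6.12 ± 1.03, adjusted p = 0.00458). Of 7 tested erythroid genes 5 fell, the same number in every leave-one-out fit, and the other 2, Bpgm and Slc25a37, are also used outside red cells (-0.20 ± 0.15 and -0.40 ± 0.26 on the log2 scale). Hba-a1 and Hba-a2 are near-identical copies whose reads the counting may split, so they are uncertain as separate genes.

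Some pericyte genes fell, while fibroblast genes did not pass. Of 17 pericyte and smooth muscle genes 5 fell and none rose, and 6 fell without tumor 6. Rgs5, a pericyte regulator of G protein signaling, measured 251, 312, 455 and 309.5 CPM in the control tumors and 123, 114, 144 and 118 CPM in the sunitinib tumors (log2 fold change -1.41 ± 0.17, adjusted p = 0.000532). Pdgfrb, the PDGF receptor of pericytes and a sunitinib target, ranged from 35.7 to 56.9 CPM in control tumors and 11.4 to 24.5 CPM in sunitinib tumors (log2 fold change -1.19 ± 0.25, adjusted p = 0.018). Kcnj8, Notch3 and Mcam fell by 2.06, 1.35 and 1.78 on the log2 scale. Each of these 5 genes was separate between the groups. The smooth muscle genes Acta2 and Myh11 had log2 fold changes of 0.42 ± 0.62 and 0.37 ± 0.70 with overlapping groups, and tumor 6 had the lowest value of the 8 tumors for both. None of 22 fibroblast genes passed in edgeR or DESeq2, at a median of 0.19, with 4 at an unadjusted p under 0.05, and 1 passed without tumor 6. Col1a1 ranged from 64.1 to 192 CPM in control tumors and 139 to 218 CPM in sunitinib tumors, and Pdgfra, the other PDGF receptor, from 2.06 to 5.33 CPM in control tumors and 2.25 to 7.58 CPM in sunitinib tumors. In the fit of the 8 tumors alone Pdgfrb and Notch3 did not pass, and without control tumor 3 the count was 3. With the acinar score as covariate Rgs5 and Mcam had values of -0.03 and 0.20.

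Basement membrane genes divided. Of 20 tested, 9 fell and 1 rose, with 10 and 1 without tumor 6. Col4a1, a chain of type IV collagen, measured 303, 456, 621 and 454 CPM in the control tumors and 143, 93, 122 and 111 CPM in the sunitinib tumors (log2 fold change -1.97 ± 0.22, adjusted p = 0.00023). Its partner Col4a2 fell by 1.83, the perlecan gene Hspg2 fell by 2.46 and the nidogen gene Nid2 fell by 2.94 on the log2 scale. All 4 were separate between groups and passed without tumor 6. With the acinar covariate the value of Col4a1 was -0.05. Lamb3, a laminin chain of epithelia, went the other way, from 0.257, 0.185, 0.127 and 0.197 CPM to 3.42, 5.0, 7.49 and 1.28 CPM (log2 fold change 4.46 ± 0.54, adjusted p = 0.000489) at a low level, and its value with the acinar covariate was -1.08. Col13a1, a transmembrane collagen gene outside the list, measured 13.3, 14.3, 14.4 and 13.5 CPM in the control tumors and 0.0766, 0.912, 0.317 and 0.0642 CPM in the sunitinib tumors (log2 fold change -5.32 ± 0.67, adjusted p = 0.000613).

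Among the kinases that sunitinib inhibits, transcripts of Kdr, Flt1, Flt4, Pdgfrb and Flt3 fell. Flt3 was near the detection limit, at 0.423 to 0.813 CPM in control tumors and 0.0642 to 0.204 CPM in sunitinib tumors, and did not pass without tumor 6 (adjusted p = 0.066). Kit, Ret, Csf1r and Pdgfra did not pass. Kit measured 23.5, 27.9, 51.6 and 56 CPM in the control tumors and 52.7, 123, 42.8 and 34.2 CPM in the sunitinib tumors (log2 fold change 0.67 ± 0.39), and Ret measured 231, 309, 243 and 231 CPM in the control tumors and 161, 11.2, 215 and 200.4 CPM in the sunitinib tumors (log2 fold change -0.79 ± 0.59). The lowest Ret and the highest Kit value were both in tumor 6, and the Ret groups did not overlap although the gene did not pass. Of 36 tested receptor kinases and ligands outside the endothelial list 9 fell and none rose, with 8 lower without tumor 6 and 5 without control tumor 3. They include Pdgfb, the ligand that recruits pericytes (-1.56 ± 0.20), the VEGF coreceptor Nrp1 (-2.22 ± 0.21) and Igfbp3, a carrier of insulin-like growth factors, which measured 101, 137, 187 and 145 CPM in the control tumors and 10.2, 24, 7.65 and 5.68 CPM in the sunitinib tumors (log2 fold change -3.58 ± 0.42, adjusted p = 0.000414). These 3 fell without overlap, with and without tumor 6.

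The ERK kinase pathway, which receptor tyrosine kinases switch on, induces feedback genes whose products restrain it. Of 11 such genes, picked after values had been seen, none passed with all tumors in edgeR or reached an unadjusted p under 0.05. Spry4 measured 6.59, 7.49, 9.33 and 7.69 CPM in the control tumors and 0.638, 21, 0.501 and 2.12 CPM in the sunitinib tumors, and Dusp6, an ERK phosphatase gene, 13, 14.6, 16.8 and 15.2 CPM in the control tumors and 4.67, 57.5, 3.72 and 6.9 CPM in the sunitinib tumors. In both, sunitinib tumors 5, 8 and 12 lay below every control tumor and tumor 6 above every control tumor. The log2 fold changes were -0.36 ± 0.94 and 0.29 ± 0.72 with tumor 6 and -2.85 and -1.55 without it, the latter with adjusted p values of 0.00837 and 0.00401. Spry1 was the third gene that passed without tumor 6, and the ETS factor gene Etv5, at 4.19, 2.49, 3.27 and 2.9 CPM in the control tumors and 1.28, 16.3, 1.32 and 1.89 CPM in the sunitinib tumors, did not (adjusted p = 0.104).

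Of 26 interferon-stimulated genes tested, 10 fell and none rose, and all 26 fold changes were negative, with a median of -1.12. Such genes encode antiviral and sensor proteins and are switched on through the interferon-stimulated response element in their promoters. The core of this element, searched here as GAAANNGAAA on both strands with overlapping matches counted, lay in 14 of the 19 list members that have a promoter window in RefSeq (73.7%, GRCm38.p6), against 3.76% of 12036 tested genes with a window. It lay in 5 of 7 lowered members and in 9 of 12 members that did not pass, so the motif did not separate them, and in 0 of 17 endothelial members. The promoters of 4 lowered genes are shown because they carry this shared feature, from 250 bases before to 50 bases after the gene start, 5′ to 3′ on the gene's strand, with the matches in capitals. Those of Ifit1 at chr19:34640639-34640938 and Ifit3 at chr19:34583279-34583578 lie on the plus strand, and those of Isg15 at chr4:156200769-156201068 and Bst2 at chr8:71537423-71537722 on the minus strand.
Ifit1: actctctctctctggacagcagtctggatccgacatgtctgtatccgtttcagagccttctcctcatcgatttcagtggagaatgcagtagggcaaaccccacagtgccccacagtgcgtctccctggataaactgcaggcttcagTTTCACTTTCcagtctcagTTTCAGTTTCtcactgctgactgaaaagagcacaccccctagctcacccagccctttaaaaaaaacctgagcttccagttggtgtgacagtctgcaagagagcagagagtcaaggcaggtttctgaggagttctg
Ifit3: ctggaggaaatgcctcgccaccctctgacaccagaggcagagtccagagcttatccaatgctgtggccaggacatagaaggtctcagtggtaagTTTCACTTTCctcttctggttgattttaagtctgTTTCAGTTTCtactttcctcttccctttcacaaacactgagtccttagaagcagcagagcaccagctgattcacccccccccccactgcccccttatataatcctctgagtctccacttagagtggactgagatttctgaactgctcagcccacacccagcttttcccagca
Isg15: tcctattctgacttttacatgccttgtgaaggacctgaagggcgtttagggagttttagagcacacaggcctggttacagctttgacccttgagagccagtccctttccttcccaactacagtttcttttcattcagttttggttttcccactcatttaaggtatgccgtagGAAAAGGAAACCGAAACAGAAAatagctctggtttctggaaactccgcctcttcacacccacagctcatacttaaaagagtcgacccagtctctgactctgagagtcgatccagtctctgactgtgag
Bst2: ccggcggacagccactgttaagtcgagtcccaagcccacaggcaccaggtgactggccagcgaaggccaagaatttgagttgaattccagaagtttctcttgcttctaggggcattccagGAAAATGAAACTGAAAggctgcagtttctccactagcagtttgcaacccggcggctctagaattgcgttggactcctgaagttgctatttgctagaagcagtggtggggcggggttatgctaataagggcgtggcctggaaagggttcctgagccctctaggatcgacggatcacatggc
The windows of Ifit1, Ifit3 and Bst2 hold 2 matches each and that of Isg15 holds 3, those of Isg15 and Bst2 overlapping. A match describes the letters and is not evidence of binding.

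Ifit3, an antiviral RNA-binding protein gene, measured 16.6, 7.88, 10.2 and 10.1 CPM in the control tumors and 1.56, 2.65, 1.9 and 0.898 CPM in the sunitinib tumors (log2 fold change -2.67 ± 0.36, adjusted p = 0.00106). Mx1, a dynamin-like antiviral GTPase gene, ranged from 3.12 to 7.72 CPM in control tumors and 0.385 to 1.02 CPM in sunitinib tumors (log2 fold change -2.72 ± 0.40, adjusted p = 0.00171), and Ifi44 from 5.71 to 8.86 CPM in control tumors and 0.0963 to 1.27 CPM in sunitinib tumors (log2 fold change -3.18 ± 0.54, adjusted p = 0.00464). These 3 were separate between groups in all 8 tumors. Control tumor 1 had the highest value of all 8 tumors for each of them.

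The count depended on tumor 6. Without it 21 of 26 fell, at a median of -1.67, and without control tumor 1 the count was 6. Oasl2, an oligoadenylate synthetase-like gene, shows the pattern, with 54.1, 28.2, 25.9 and 25 CPM in the control tumors and 8.55, 30.6, 8.28 and 5.74 CPM in the sunitinib tumors. Tumor 6 lay inside the control range and the other 3 sunitinib tumors below it, and the adjusted p was 0.156 with and 0.00171 without tumor 6. Irgm1 was likewise 0.543 with and 0.0157 without it. In the fit of the 8 tumors alone 6 members passed, and with the acinar list removed 9 did. With the acinar covariate, which cannot be separated from treatment, all 26 values were negative, at a median of -5.29. Families of interferon-inducible genes picked after their values were seen moved the same way, with 6 of 7 Schlafen genes, 7 of 10 AIM2-like genes and 3 of 7 guanylate-binding protein genes lower and none higher.

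Antigen presentation genes divided by class. The 7 of 17 that fell all belong to the class II pathway, namely H2-Aa, H2-Ab1, H2-Eb1, H2-DMa, H2-DMb1, the invariant chain Cd74 and their activator Ciita. Cd74 measured 255, 170.5, 178 and 100.5 CPM in the control tumors and 45.7, 38.4, 36.2 and 32.6 CPM in the sunitinib tumors (log2 fold change -2.20 ± 0.34, adjusted p = 0.00235), and H2-Eb1 ranged from 37.3 to 111 CPM in control tumors and 11.6 to 15.4 CPM in sunitinib tumors (log2 fold change -2.46 ± 0.37, adjusted p = 0.00208). Neither overlapped, and the 4 sunitinib tumors lay closer together than the control tumors did. The class I genes H2-K1 and B2m had log2 fold changes of -0.12 ± 0.23 and -0.14 ± 0.39, with overlapping groups, and did not pass. Class II molecules are carried by dendritic cells, macrophages and B cells. All 7 also passed without tumor 6, where 8 of the 17 were called lower. The list's median was -0.25 with and -0.62 without that tumor, with 14 negative and 3 positive fold changes in both fits.

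Of 21 tested macrophage genes 4 fell and none rose, with the same count without tumor 6. Over the list 15 had negative fold changes, with a median of -0.48, and 8 lay wholly below the control tumors, against 5.76% of all tested genes. Mrc1, the mannose receptor gene, measured 13.8, 9.87, 18.2 and 14.7 CPM in the control tumors and 3.27, 6.19, 3.32 and 2.21 CPM in the sunitinib tumors (log2 fold change -1.91 ± 0.33, adjusted p = 0.00502). Ccr2, the chemokine receptor of recruited monocytes, ranged from 2.56 to 6.55 CPM in control tumors and 0.545 to 0.884 CPM in sunitinib tumors (log2 fold change -2.56 ± 0.52, adjusted p = 0.0148), and Adgre1 (F4/80) and Cx3cr1 fell by 1.14 and 1.59 on the log2 scale. The pan-macrophage genes Cd68 (0.31 ± 0.25), Lyz2 (0.21 ± 0.30) and C1qa (-0.48 ± 0.36) did not pass and overlapped. Summed over the list, levels ran from 962 to 1324 CPM in control and from 421 to 1238 CPM in sunitinib tumors. Ccl7, a monocyte chemokine gene, ranged from 0.507 to 1.99 CPM in control tumors and 0.0528 to 0.166 CPM in sunitinib tumors (log2 fold change -3.24 ± 0.54, adjusted p = 0.00418), and Csf1, the macrophage growth factor, had log2 fold changes of -0.60 ± 0.14 with and -0.60 without tumor 6 (adjusted p = 0.036 and 0.0544), and passed in 1 of the 8 leave-one-out fits.

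Outside the macrophage list, Mmp12, Gpnmb, Adam8 and Il1rn rose, the last 2 of them chosen after their values were seen. Mmp12, macrophage elastase at chr9:7344381-7369499 on the plus strand, measured 6.67, 3.6, 4.77 and 4.96 CPM in the control tumors and 37, 29.2, 18.2 and 50.5 CPM in the sunitinib tumors (log2 fold change 2.75 ± 0.30, adjusted p = 0.000247). Every sunitinib tumor was above every control tumor, and Mmp12 passed in every leave-one-out fit. Gpnmb, a glycoprotein of phagocyte lysosomes, measured 22.2, 6.67, 7.1 and 3.86 CPM in the control tumors and 63.5, 24.9, 59.1 and 108 CPM in the sunitinib tumors (log2 fold change 2.68 ± 0.57, adjusted p = 0.0196), with the highest control tumor just below the lowest sunitinib tumor, tumor 6. Adam8 and Il1rn, the interleukin 1 receptor antagonist, rose by 0.96 and 1.97 on the log2 scale. With the acinar covariate Il1rn was at -0.93. Gpnmb, Adam8 and Il1rn did not pass in the fit of the 8 tumors alone, and they passed in 4, 3 and 7 of the 8 leave-one-out fits. Mmp8, a neutrophil collagenase gene, was called higher at levels of 0.0265 to 0.127 CPM in control tumors and 0.357 to 0.578 CPM in sunitinib tumors, close to the detection limit. Of 16 tested lymphocyte genes 1 fell, the chemokine gene Ccl5 (log2 fold change -1.91 ± 0.43, adjusted p = 0.028), which passed in 4 of the 8 leave-one-out fits and not in the fit of the 8 tumors alone. Ptprc (CD45), at -1.12 ± 0.33 on the log2 scale, did not pass.

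Endocrine identity genes did not pass as a group. None of 30 beta cell genes passed in edgeR or DESeq2, with 1 at an unadjusted p under 0.05, and the insulin gene Ins2 measured 21837, 34216, 21297 and 17904 CPM in the control tumors and 10612, 784, 17074 and 43805 CPM in the sunitinib tumors (log2 fold change -0.40 ± 0.75, adjusted p = 0.796). Outside tumor 6 the values of the groups overlapped, and the list's median moved from -0.38 to -0.02 without it. In tumor 6 Pdx1, the master regulator of pancreas and beta cells, measured 4.17 CPM against 263 to 392 CPM in the other 7 tumors, and Sytl4 and Npy measured 7.02 and 2.79 CPM against at least 661 and 632 CPM. The general neuroendocrine gene Chga, for chromogranin A, did not share this, with 2581, 3325, 2891 and 2643 CPM in the control tumors and 3882, 2849, 3757 and 4111 CPM in the sunitinib tumors. Tumor 6 was instead high in Peg10, an imprinted retrotransposon-derived gene, at 5173 CPM against at most 9.88, and in Ttr, for transthyretin, at 6357 CPM against at most 257. Whether this reflects sunitinib cannot be read from 1 tumor.

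Of 25 granule and exocytosis genes 2 rose, Unc13a and Vgf, and none did in the fit of the 8 tumors alone or without control tumor 1 or 3. Unc13a, which primes vesicles for release, measured 100.4, 123, 116 and 132 CPM in the control tumors and 221, 306, 146 and 219 CPM in the sunitinib tumors (log2 fold change 0.92 ± 0.20, adjusted p = 0.0197) and passed without tumor 6. Vgf, a secreted neuropeptide precursor, measured 13.9, 16.5, 5.55 and 11.6 CPM in the control tumors and 15, 366, 27.3 and 119 CPM in the sunitinib tumors (log2 fold change 3.47 ± 0.84, adjusted p = 0.0379), its groups overlapped and it did not pass without tumor 6 (adjusted p = 0.0604). Outside the lists, and chosen after their values were seen, the neurofilament gene Nefm measured 33.4, 67.9, 48.6 and 51.5 CPM in the control tumors and 116, 174, 82.8 and 117 CPM in the sunitinib tumors (log2 fold change 1.28 ± 0.25, adjusted p = 0.0104) and the pacemaker channel gene Hcn2 53.3, 41.7, 41.8 and 43.7 CPM in the control tumors and 75.2, 68.9, 65.3 and 101 CPM in the sunitinib tumors (log2 fold change 0.78 ± 0.15, adjusted p = 0.00924). Both were separate between groups and passed in every leave-one-out fit, but not in the fit of the 8 tumors alone. Arhgdig, a gene known from brain and pancreas, rose by 1.55 on the log2 scale.

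Genes of the cytosolic ribosome had small positive fold changes. Of 78 cytosolic ribosomal protein genes 6 rose, none fell and 76 had positive fold changes, with a median of 0.48. Over all tested genes 53.3% were positive. Rps2, a small-subunit protein gene at chr17:24718116-24721929 on the plus strand, measured 13.5, 8.84, 8.02 and 9.02 CPM in the control tumors and 23.7, 23.4, 17.8 and 36.7 CPM in the sunitinib tumors (log2 fold change 1.37 ± 0.25, adjusted p = 0.0084). Rpl12, Rpl9, Rpl10a, Rpl13 and Rps10 rose by 0.89, 0.86, 0.74, 0.80 and 0.92 on the log2 scale. Without tumor 6, 11 rose, without control tumor 3 or 4 the count was 3, and in the fit of the 8 tumors alone 1 did, Rps2. These genes have many processed pseudogenes, and reads with several alignments are left out of the counts. Alignments set aside as not unique numbered 26243297 to 28955785 in control and 28412388 to 48418780 in sunitinib libraries, so the levels of these genes are uncertain. Of the genes called higher, 27 are themselves annotated as processed pseudogenes. None of 75 mitochondrial ribosomal protein genes passed in edgeR or DESeq2, with 12 at an unadjusted p under 0.05 and a median of 0.21. None of 80 nuclear oxidative phosphorylation genes passed in edgeR and 2 rose in DESeq2, with 14 at an unadjusted p under 0.05 and a median of 0.26. Over all tested genes 3247 of 16645 reached that unadjusted p, a share that neither mitochondrial list exceeded. Most of their fold changes were positive, however. These were 67 of the 75 mitochondrial ribosomal and 71 of the 80 oxidative phosphorylation genes, and 66 and 74 without tumor 6, against 53.3% of all tested genes. Mitochondrially encoded transcripts took 2.74 to 3.53% of counts in control and 1.96 to 2.25% in sunitinib tumors (p = 0.0286, exact two-sided permutation test). Gene by gene the fall was not general. Of 10 tested, 6 had negative and 4 positive fold changes, none was called lower in edgeR and 3 were in DESeq2. Of the 10, 5 lay wholly below and 1 wholly above the control tumors, against 5.76 and 5.17% of all tested genes. The gene mt-Nd6 was called higher, but not without tumor 6.

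Stress pathways yielded few calls. Of 29 genes of the amino acid stress response run by ATF4, 4 rose, with the same count without tumor 6. The largest of the 4 was Nupr1, a stress-induced chromatin protein that is also abundant in acinar cells, at 14.8, 23.8, 8.45 and 4.43 CPM in the control tumors and 372, 527, 735 and 279 CPM in the sunitinib tumors (log2 fold change 5.21 ± 0.70, adjusted p = 0.000974). Cth, Cebpb and Atf3 rose by 2.32, 1.16 and 1.16, and the asparagine synthetase gene Asns did not pass (0.06 ± 0.30). With the acinar covariate the value of Nupr1 was 0.97 and that of Cth -2.11. Without control tumor 3 or 4 the list had 1 call. None of 26 genes of the unfolded protein response passed in edgeR or DESeq2, with 1 at an unadjusted p under 0.05. The mitochondrial chaperones Hspe1 (log2 fold change 0.93 ± 0.19, adjusted p = 0.0175) and Hspd1 (log2 fold change 0.52 ± 0.13, adjusted p = 0.0446) were the 2 of 18 heat shock genes that rose, and Hspd1 did not pass without tumor 6. That count ran from 0 without control tumor 3 or 4 to 8 without sunitinib tumor 5, and DESeq2 called 11. Vars, the valyl-tRNA synthetase gene, was the 1 of 20 cytosolic synthetase genes that rose, at 126, 117, 119 and 123 CPM in the control tumors and 182, 177, 158 and 208 CPM in the sunitinib tumors (log2 fold change 0.58 ± 0.11, adjusted p = 0.00882).

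None of 30 replication, 28 mitosis or 25 p53 and apoptosis genes passed in edgeR or DESeq2, with 5, 0 and 6 at an unadjusted p under 0.05. Fold changes were negative for 25 and positive for 3 of the mitosis genes, at a median of -0.22, and 25 were negative without tumor 6. Of the replication genes 24 were positive and 6 negative, at a median of 0.14. Mki67 had the highest fold change of the mitosis list. It measured 628, 806, 1132 and 1292 CPM in the control tumors and 973, 1229.6, 1179.8 and 884 CPM in the sunitinib tumors (log2 fold change 0.15 ± 0.25, adjusted p = 0.781), overlapping between groups. The 21 growth genes of the MYC list all had positive values, at a median of 0.38, and none passed in edgeR, with 13 at an unadjusted p under 0.05 and 4 called in DESeq2. Over all tested genes 53.3% of fold changes were positive and 3247 of 16645 genes had an unadjusted p under 0.05. Klf2, a flow-responsive endothelial factor, was the 1 of 22 immediate early genes called with all tumors, at 4.77, 5.26, 5.17 and 5.1 CPM in the control tumors and 1.2, 1.66, 1.32 and 1.6 CPM in the sunitinib tumors (log2 fold change -1.81 ± 0.22, adjusted p = 0.000486). The list depended on tumor 6. With it 17 fold changes were positive and 5 negative (median 0.30), and without it 5 and 17 (median -0.18). Without tumor 6, Jund was called higher (adjusted p = 0.0397) and 2 genes lower, Klf2 among them.

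Single genes of lipid use and the lysosome rose. Cpt1a, which gates fatty acid entry into mitochondria, measured 24.4, 23.7, 24 and 22.5 CPM in the control tumors and 47.4, 73.1, 30.6 and 42.3 CPM in the sunitinib tumors (log2 fold change 1.03 ± 0.23, adjusted p = 0.0259), the 1 of 20 oxidation genes called. It passed in the 4 fits that left out a sunitinib tumor, and not in those that left out a control tumor or in the fit of the 8 tumors alone. Slc27a1, a fatty acid transporter gene outside the list, measured 24.6, 25, 28 and 24.2 CPM in the control tumors and 41.7, 59.7, 38.9 and 52.7 CPM in the sunitinib tumors (log2 fold change 0.92 ± 0.15, adjusted p = 0.00308) and passed in every leave-one-out fit. Of 26 lysosome and autophagy genes 22 had positive values, against 53.3% of all tested genes. The cathepsins Ctsd and Ctsz and the galactosidase Gla were the 3 that rose, by 0.75, 0.79 and 0.69 on the log2 scale. None of the 3 passed in the fits without control tumor 2, 3 or 4 or sunitinib tumor 12. None of 24 cholesterol synthesis, 15 fatty acid synthesis, 24 citric acid cycle or 17 clock genes passed in edgeR, with 3, 3, 6 and 3 at an unadjusted p under 0.05 and 1, 1, 2 and 0 called in DESeq2. Narf, a nuclear prelamin-binding protein gene chosen after its values were seen, measured 19.6, 15.1, 17.6 and 17.7 CPM in the control tumors and 42, 42.2, 33.3 and 32 CPM in the sunitinib tumors (log2 fold change 1.09 ± 0.15, adjusted p = 0.00104), and the groups were separate.

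Of 50 tested acinar genes 46 rose (45 without tumor 6), at a median of 9.69, which becomes 9.64 when the 4 genes with 0 control counts are set to a bound of 3 counts over the group. The trypsinogen gene Prss2 measured 6.57, 0.212, 0.0507 and 0.31 CPM in the control tumors and 1776, 3027, 1802 and 862 CPM in the sunitinib tumors, and the chymotrypsinogen gene Ctrb1 18.1, 0.397, 0.431 and 1.92 CPM in the control tumors and 5163, 10402, 10755 and 2750.3 CPM in the sunitinib tumors. Control tumor 1 had the highest control value for both and was still far below every sunitinib tumor, among which tumor 12 was lowest. The trypsinogens and elastases include close copies, so single members are uncertain.

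Some duct and lining genes rose as well. Of 14 duct genes Sox9, Muc1 and Spp1 rose, and without control tumor 2 or 4 only 1 did. With the acinar covariate Sox9, Muc1 and Spp1 were at -3.53, -2.45 and -1.79, and 12 of the 14 were negative with a median of -2.12. Spp1, for osteopontin, which ducts and macrophages share, measured 26.8, 9.36, 1.5 and 5.07 CPM in the control tumors and 47.7, 148, 119.7 and 52 CPM in the sunitinib tumors (log2 fold change 3.10 ± 0.73, adjusted p = 0.035), and did not pass without tumor 6 (adjusted p = 0.0528). Of 4 tested mesothelium genes, which mark the lining of the abdominal cavity, Msln, Upk3b and Slpi rose. Upk3b measured 0.0214, 0, 0 and 0.0564 CPM in the control tumors and 3.27, 0.497, 0.422 and 3.69 CPM in the sunitinib tumors, and its highest values were in tumors 5 and 12. The zinc transporters Slc39a5 and Slc30a2 and the glutamine transporter Slc38a3, known from acinar cells, were also higher, Slc39a5 at 12.7, 14.2, 13.5 and 4.78 CPM in sunitinib tumors and at most 0.0507 CPM in control tumors.

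Removing the acinar list before normalization left 263 of the 275 other higher genes and 402 of the 424 lower genes called, and 228 and 363 without tumor 6 as well. This step drops only the listed genes and leaves the counts of the others as they were. It therefore cannot show whether exocrine RNA contributes to the other genes. With the acinar score as a covariate no gene passed in edgeR, and 814 had an unadjusted p under 0.05. The score ran from -2.73 to 0.07 in control tumors and from 6.17 to 7.97 in sunitinib tumors, and was 4.27 to 6.24 in the rapamycin plus sunitinib tumors. Because control and sunitinib scores do not overlap, the adjusted values rest on extrapolation. The counts that follow describe this fit and cannot separate the acinar share from treatment. Of the 424 lower genes 407 stayed negative and 365 kept at least 50% of their log2 fold change. Of the 275 higher genes outside the acinar list 182 stayed positive and 141 kept at least 50%. For the 140 of these with a mean under 1 CPM in control tumors 71 stayed positive, and for the 135 others 111 did. Mmp12, Gpnmb, Rps2 and Arhgdig kept values of 2.49, 2.00, 1.1 and 1.60, while Hsd17b13 and Tmed6, at 5.74 and 4.25 without the covariate, dropped to 1.11 and 1.11.

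**Figure D4:**
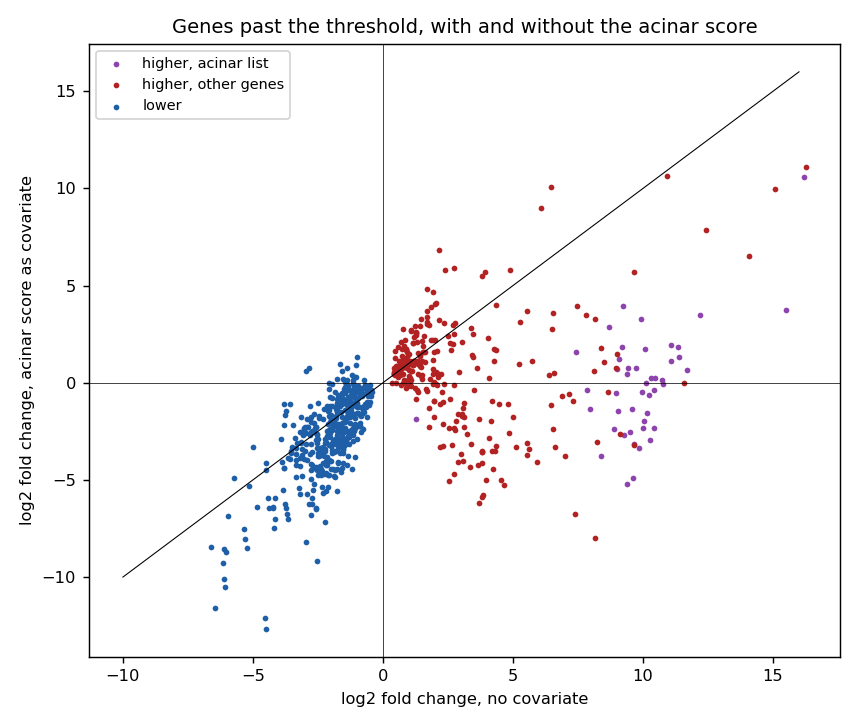
Log2 fold change with the acinar score as covariate (y axis) against that without (x axis) for genes past the threshold, with the diagonal as a line. Lower genes (blue) stay below 0 in 407 of 424 cases, acinar genes (purple) stay above 0 in 23 of 46 and other higher genes (red) in 182 of 275. No gene passed in the covariate fit, which cannot separate the acinar score from treatment.

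Habp2, a serine protease gene, had the largest fold change of the 8 higher genes named by size and its level was set by tumor 6, at 0.299, 0.0529, 0 and 0.0282 CPM in the control tumors and 2.83, 111, 4.8 and 1.16 CPM in the sunitinib tumors. It passed with and without tumor 6, at 8.17 ± 1.67 and 4.81 on the log2 scale. The higher genes that did not pass without tumor 6 with the smallest p were Akap12, Ptp4a1 and Spp1, and the lower ones Lamc1, Tmem123 and Csf1. For Lamc1, the shared chain of basement membrane laminins, the values were 93.9, 106, 125 and 102 CPM in the control tumors and 87.5, 49.99, 62.4 and 46.9 CPM in the sunitinib tumors, and the fold change moved from -0.79 ± 0.18 to -0.70 with adjusted p values of 0.0301 and 0.0544. In all 6 the direction stayed and the adjusted p went from under to just over 0.05.

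**Figure D5:**
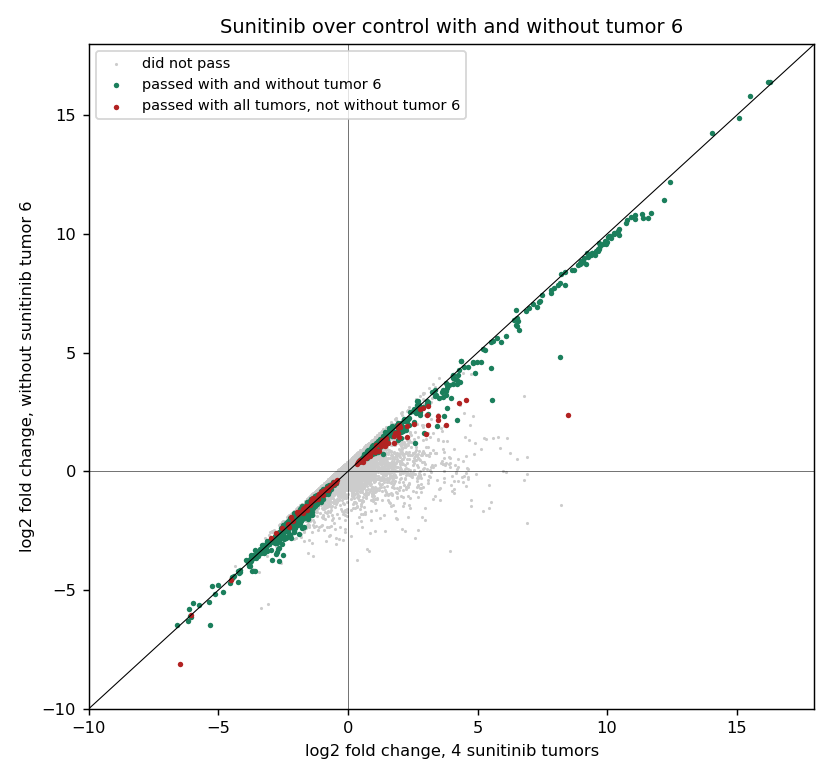
Log2 fold change without sunitinib tumor 6 (y axis) against that with all 4 sunitinib tumors (x axis) for the tested genes. Calls that also pass without tumor 6 (green, 265 higher and 373 lower) mostly lie near the diagonal, red points are the 56 higher and 51 lower genes that pass only with it, and gray genes did not pass with all 4 sunitinib tumors (65 higher and 189 lower of these pass without tumor 6).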

How the data were processed

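RNA of 12 tumors was sequenced as TruSeq Stranded mRNA libraries. According to the submitters' processing notes reads were trimmed with cutadapt 1.2.1, aligned to GRCm38 with TopHat2 2.0.9 and counted with HTSeq 0.5.4p3. The annotation release and whether counting used strand are not given in the sources used here, so overlapping antisense pairs cannot be told apart. The values used are the counts per gene that the authors deposited for each tumor, not normalized. The 5 summary lines of each table were left out of library sizes and tests. Symbols and coordinates came from GENCODE M21 on GRCm38, which held 37607 of 38924 identifiers, and promoter windows from RefSeq on GRCm38.p6.

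Genes passing edgeR's filterByExpr (minimum count 10, minimum total 15) were fitted in edgeR 4.0.16 under R 4.3.3, with TMM normalization, 1 term for each of the 3 treatment groups and robust quasi-likelihood F tests of sunitinib against control. Adjusted p values follow Benjamini and Hochberg across all tested genes, and a call needs one under 0.05. Standard errors were obtained as the fold change over the root of its F statistic. For log2 CPM the prior count was 2. Totals of 31872342 to 44215054 counts over the 8 tumors set the precision of low genes. Shares of counts were compared by a two-sided exact permutation test over tumors. The fit was tested on simulated data with known changes.

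Named genes were up to 8 in each direction with the largest fold change among calls with an average log2 CPM of at least 3, no overlap between groups, a call without sunitinib tumor 6 and no place on the acinar, glycolysis or hypoxia lists. For each list they were up to 3 members with the smallest p and the first 2 members, and for tumor 6 the 3 genes per direction with the smallest p that pass only with it. All other named genes were chosen after their values were seen. The members and lists were chosen with earlier results of these data known. Alternatives were other normalizations and filters, DESeq2 1.42.0, the 8 tumors alone, removal of the acinar list and the acinar score as covariate. Others were a test against a log2 fold change of 1, sums of treated tumors by label prefix (control tumors kept separate) and each tumor left out. Some results are not reported here.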

Additional observations from a re-analysis of the deposited data

Results flagged for a closer look

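A tumor was marked when, among the 4 of its group, its gap to the nearest tumor divided by the group's range of log2 CPM (for shares, percent) exceeded Dixon's 95% critical value. Of 330 pairs of group and measure 20 were marked, and chance marks about 1 in 20 of measures picked without regard to their values. Many genes here were named after their values were seen, so that rate does not hold for them and the marks partly reflect the choice. Sunitinib tumor 6 accounted for 8 of the marks. It was lowest for Pdx1 (0.949), Sytl4 (0.906), Ret (0.902), Mafa (0.866), Ins1 (0.845) and Asns (0.835), and highest for Peg10 (0.962) and Etv5 (0.848).

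Sunitinib tumor 12 was highest for Rpl13 (0.931) and lowest for Slc39a5 (0.898) and Flt1 (0.83). Tumor 8 was highest for Mcam (0.853) and tumor 5 lowest for Ctsz (0.84). Control tumor 1 was highest for Muc1 (0.939), Slpi (0.876) and Oasl2 (0.845), and for the acinar share of counts (0.901). Control tumor 3 was highest for the endothelial genes Plvap (0.835) and Icam2 (0.841) and for Pdgfb (0.885).

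In the rapamycin plus sunitinib tumors the acinar share was also above the control level, at 0.425% in the lowest tumor against 0.0262% in the highest control tumor. These tumors enter the filter, the normalization and the estimate of the spread, but are not compared here. In the fit with the acinar score as covariate they also affect the adjusted fold changes.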

How the results depend on the processing

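Control tumors share a label prefix but were not summed, so the sums by prefix cover treated tumors only. The counts of 321 higher and 424 lower genes stayed within 1.5 times under other size factors, no filter, removal of the acinar list and these sums. They became 134 and 274 with at least 10 counts required in every tumor, 141 and 239 in the fit of the 8 tumors alone, which has fewer samples to estimate the spread, 121 and 149 in the test against a log2 fold change of 1, 766 and 747 in DESeq2, and 0 and 0 with the acinar score as covariate. Leaving out 1 tumor gave 172 to 467 higher and 257 to 562 lower genes, with 183 and 257 without control tumor 3 and 172 higher without control tumor 4. The cause was not tested.

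Naming rules used the calls without tumor 6, and other names were picked after their values were seen. The share of named genes that passed without tumor 6 is therefore partly set by selection. Over all calls 265 of 321 higher and 373 of 424 lower genes did so. Of 116 named genes that passed, 103 also passed without sunitinib tumor 6 and 69 of 115 in the fit of the 8 tumors alone. With the acinar list removed, which leaves the counts of other genes unchanged, 111 of 111 passed. With the acinar score as covariate 20 changed sign, to values of -3.38 for Cpa1, -2.31 for Prss2, -4.89 for Cela2a, -5.19 for Pnlip, -2.35 for Ctrb1, -3.53 for Sox9, -1.79 for Spp1, -2.45 for Muc1, 0.20 for Mcam, -1.08 for Lamb3, 0.92 for Sparc, -0.93 for Il1rn, -1.88 for Sstr2, -2.11 for Cth, -0.15 for Ctsl, -8.01 for Habp2, -0.29 for Akap12, -4.10 for Cldn8, -2.86 for Cldn9 and -1.74 for Cldn10. Dusp6, at 0.29 with all tumors, ran from -1.55 without tumor 6 to 0.62 without tumor 8 when 1 tumor was left out, and was at -1.53 without tumor 6 and the acinar list. No paired analysis was possible because the sunitinib and control tumors share no replicate number.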

Other observations

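Control tumors were not alike for every gene. Cdh19, a cadherin gene known from Schwann cells, measured 0.471, 0.688, 92.0 and 73.3 CPM in control tumors 1 to 4, and 0.459, 0.415, 7.28 and 0 CPM in sunitinib tumors 5, 6, 8 and 12. The imprinted long noncoding RNA gene Meg3 measured 2084, 2049.6, 3794 and 4224 CPM in the control tumors.

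Eif2s3y, a Y-linked gene of a translation initiation factor subunit, measured 5.91 and 3.54 CPM in sunitinib tumors 6 and 8, and 57.5 to 114 CPM in the other tumors compared. The Y-linked genes Ddx3y and Kdm5d did not share this, at 80.6 and 38.9 CPM in tumor 6 and 51.1 and 17.5 CPM in tumor 8.

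In tumor 6 Gc and Irx1, genes known from alpha cells, measured 688 and 169 CPM, against at most 15.2 and 10.5 CPM in the other 7 tumors, while the glucagon gene Gcg, at 74.1 CPM, lay within the range of the others.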
